A study of Homo sapiens with 30 samples.

Results

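The dual specificity phosphatases DUSP1, DUSP2, DUSP4, DUSP5, DUSP6, DUSP7, DUSP8, DUSP10 and DUSP16 were followed in breast cancer cells exposed to bone morphogenetic protein 4 (BMP4). The 9 genes were chosen by symbol, as the MAP kinase phosphatases named on the array, and 16 of its 41000 probes carry those names. DUSP2 was singled out from its own ratios in these arrays, because it was induced in most lines, so its ratios are described here without a test. The cells were 5 established ERBB2-positive breast cancer lines (ZR-75-30, SK-BR-3, MDA-MB-361, HCC1954 and HCC1419), which carried no added transgene or deletion in the labels. Cells of each line received recombinant human BMP4 or vehicle and were collected after 30 min or 1, 3, 6, 12 or 24 h. Each of the 30 two-colour arrays compared 1 line at 1 time point, with vehicle RNA in Cy3 and BMP4 RNA in Cy5. Each time point therefore had 5 arrays and each line had 6. Triplicate treatments were pooled before RNA extraction, and the labels name no independent cultures of a line, so the spread reported below is between lines or between arrays and not between independent cultures. In RNA from whole cultures, fewer expressing cells and less RNA per cell cannot be told apart.

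MAP kinase phosphatases remove phosphate from both the threonine and the tyrosine of the activation loop of MAP kinases and thereby switch them off. Many of their genes are themselves transcribed in response to MAP kinase activity, which makes them feedback inhibitors. DUSP1, DUSP2, DUSP4 and DUSP5 are nuclear enzymes of the inducible class. DUSP6 and DUSP7 are cytoplasmic and prefer ERK, whereas DUSP8, DUSP10 and DUSP16 act mainly on the stress kinases JNK and p38. BMP4 signals through receptor serine-threonine kinases to SMAD1, SMAD5 and SMAD4, and the ID genes and SMAD6 are established targets of that pathway.

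DUSP2 was measured by 2 probes to the same transcript. In the array design, on genome build hg18, probe 1 (A_23_P108842) lies at chr2:96172962-96173021 and probe 2 (A_24_P37409) at chr2:96173630-96173689, both on the minus strand. An exon or UTR assignment was not made here. The bases upstream of the annotated start of DUSP2 and of DUSP1 are shown because these inducible nuclear phosphatases differed in their BMP4 response. The sequences are from RefSeq on GRCh38.p14, 250 bases ending just before the start, read 5′ to 3′ on the minus strand. DUSP2 is at chr2:96145441-96145690 and DUSP1 at chr5:172771196-172771445. Capitals mark matches to GGCGCC, a GC-rich motif bound by SMAD1 and SMAD5, and to CAGAC or its reverse complement GTCTG, the short SMAD4 box.
DUSP2: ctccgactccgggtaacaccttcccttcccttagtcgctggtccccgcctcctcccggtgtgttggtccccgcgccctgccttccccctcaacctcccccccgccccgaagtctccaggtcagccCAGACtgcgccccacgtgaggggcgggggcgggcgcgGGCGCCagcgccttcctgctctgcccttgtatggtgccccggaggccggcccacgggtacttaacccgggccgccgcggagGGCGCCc
DUSP1: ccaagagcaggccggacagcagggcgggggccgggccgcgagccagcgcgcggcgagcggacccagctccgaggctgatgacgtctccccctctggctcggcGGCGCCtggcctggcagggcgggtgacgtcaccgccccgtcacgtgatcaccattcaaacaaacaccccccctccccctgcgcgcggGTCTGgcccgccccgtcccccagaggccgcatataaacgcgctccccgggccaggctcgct

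DUSP2 held 2 matches to GGCGCC and 1 to CAGAC, and DUSP1 held 1 of each. Of the 35116 windows of the same length in the table, 16.4% held GGCGCC and 38% held CAGAC, so both motifs are common. The table had windows for 7 of the 9 members. DUSP16 also held 1 match to each motif, DUSP7 and the downstream of both DUSP10 windows held 1 GGCGCC, and the windows of DUSP6 and DUSP8 held neither. The longer palindrome GTCTAGAC, present in 0.182% of windows, was found in no window of a member.

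Before the ratios, the arrays were checked against their labels. ERBB2, GATA3, the epithelial adhesion molecule TACSTD1 and the keratins KRT7, KRT8 and KRT19 were well above background in the vehicle channel on all 30 arrays, with KRT18 doing so for 3 of 4 probes and CDH1 on 24 arrays. Of the markers of other cell types, the leukocyte marker PTPRC was above background on at most 7 arrays for either probe, the endothelial PECAM1 on 6 and CDH5 on 10, the collagens COL1A2 and COL3A1 on at most 7, whereas CD68 reached 30, COL1A1 29 and vimentin 17 and 20. Between 56.3% and 70.8% of probes per array and channel were well above background. Scan day coincided with line in HCC1419 and MDA-MB-361, each scanned on 1 day of its own, and in SK-BR-3 the 30 min and 1 h arrays were scanned on another day than the later ones. In HCC1954 the 30 min, 1 h and 12 h arrays shared a day and those at 3, 6 and 24 h another, and in ZR-75-30 the 30 min, 3 and 12 h arrays were separate from those at 1, 6 and 24 h.

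DUSP2 stood near a ratio of 0 at 30 min and above it from 1 h on. For probe 1 the mean log2 ratio of BMP4 over vehicle was 0.01 ± 0.21 after 30 min (SD over the 5 lines), then 0.80 ± 0.37 after 1 h and 0.77 ± 0.51 after 3 h. It reached 1.06 ± 0.75 by 6 h and 1.16 ± 0.83 by 12 h, and at the last time point stood at a mean of 2.15-fold with an SD of 0.77 on the log2 scale. From 1 h on, probe 1 was above 0 in 5 of 5 lines at every time point. Probe 2 followed the same course at a lower height, with −0.02 ± 0.04 after 30 min, then 0.47 ± 0.40 after 1 h and 0.88 ± 0.91 after 24 h, and was above 0 in 4 or 5 of the 5 lines from 1 h on. Over the 30 arrays the probes correlated with a Pearson r of 0.95 (Spearman 0.95), and with 0.92 after the mean of each line was removed. The probes share arrays and RNA, so this correlation describes how alike they read and is no independent test.

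The lines differed in the height and shape of the DUSP2 response. In MDA-MB-361 probe 1 climbed at each successive time point, with log2 ratios of 0.28, 1.40, 1.57, 2.02, 2.12 and 2.36 from 30 min to 24 h, the last being 5.14-fold. In HCC1419 it read 0.01, 0.82, 0.75, 1.50, 1.80 and 0.77, a peak at 12 h with a lower value at 24 h. In ZR-75-30 it read 0.03, 0.81, 0.77, 0.81, 1.01 and 1.09. The highest array was thus that at 24 h in MDA-MB-361 and ZR-75-30 and that at 12 h in HCC1419, with 1 array per point and no replicate. In SK-BR-3 the values were −0.30, 0.51, 0.62, 0.90, 0.86 and 0.99, and in HCC1954 they were 0.05, 0.46, 0.14, 0.04, 0.03 and 0.30. HCC1954 was thus the lowest line at every time point from 1 h on.

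Probe 2 gave the same extremes. It read 0.00, 1.12, 1.23, 1.70, 1.85 and 2.45 in MDA-MB-361 and −0.07, 0.16, −0.06, −0.06, 0.02 and 0.17 in HCC1954. In HCC1419 it peaked at 12 h with 1.24 and stood at 0.44 at 24 h. The highest value of probe 2 in SK-BR-3 was 0.63, at 6 h, and in ZR-75-30 it was 0.79, at 24 h. On this probe SK-BR-3 stood close to HCC1954 at 1 and 3 h, with 0.22 and 0.06. Ratios of at least 2-fold were reached on 9 of 30 arrays with probe 1, in 3 lines, and on 6 arrays with probe 2, in 2 lines.

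**Figure D1:**
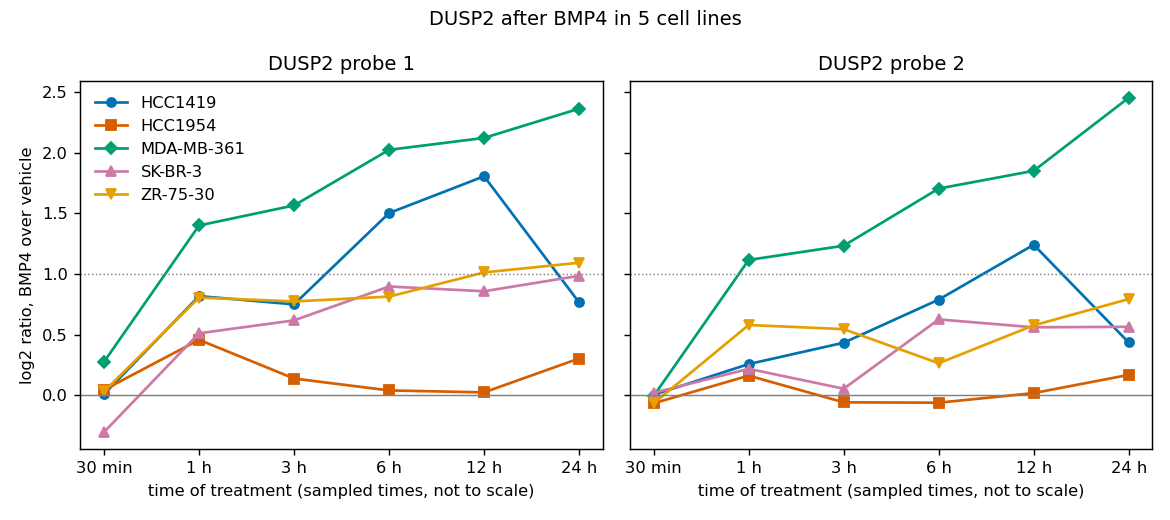
Log2 ratio of BMP4 over vehicle for DUSP2 on the y axis against the sampled time points on the x axis, 1 line and symbol per cell line and 1 panel per probe. Each point is 1 array, the solid grey line is a ratio of 0 and the dotted line is 2-fold. MDA-MB-361 climbed to 2.36 and 2.45 at 24 h, HCC1419 peaked at 12 h, and HCC1954 stayed under 0.5 on both probes.

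The late change, the mean of the 3, 6, 12 and 24 h ratios minus the 30 min ratio within a line, summarized these courses. Its SE and p-values, here and below, come from the limma fit with the line as a block. They do not measure the spread between lines, for which the SD of the DUSP2 late change was 0.61 on probe 1 and 0.65 on probe 2. For probe 1 it was 1.01 (SE 0.16) on the log2 scale, with 1.74 in MDA-MB-361, 1.20 in HCC1419, 1.14 in SK-BR-3, 0.89 in ZR-75-30 and 0.08 in HCC1954. For probe 2 it was 0.73 (SE 0.17), with 1.81, 0.72, 0.43, 0.61 and 0.08 in the same order of lines. HCC1954 thus lay within 0.1 of no change on both probes. Its mean vehicle levels of DUSP2 were the lowest of the 5 lines, 7.34 and 6.88, the latter with 5 of 6 arrays well above background. Its late change was not calculated separately from the deposited ratios. In HCC1954 the BMP target ID1 had a late change of 1.25, against 1.33 in HCC1419 and 1.14 in MDA-MB-361, so the array pairs of this line did carry a response of ID1.

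The height of the DUSP2 ratios depended on how the signals were treated. The main values add an offset of 50 to every background-corrected signal, which pulls ratios of dim spots toward 0. With the deposited log ratio of the scanner software the late change was 1.38 for probe 1 and 1.34 for probe 2, and 18 and 17 arrays reached 2-fold. With the authors' series matrix it was 1.39 and 1.35, with 18 and 16 arrays at 2-fold. The gap between the probes was thus smaller with either set of deposited values. These values differ from the main ones in more than the offset, and the cause of the difference was not tested. Without MDA-MB-361 the late change was 0.83 for probe 1 and 0.46 for probe 2.

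The other 8 genes, with 14 probes, were compared with vehicle in the same way. Of these 14 probes, 0 were called in the late change by limma at an adjusted p under 0.05, and 0 had an unadjusted p under 0.05. Of all 41000 probes, 0.0927% were called. Their late changes ran from −0.21 to 0.19 with a median of 0.01, equal at this precision to the 0.01 over all probes. In the F test over all time points 0 of 14 were called (0 unadjusted), against 0.0902% of all probes. Of their 420 ratios, 1 reached 2-fold upward and 0 downward. The 1 was DUSP16 probe 2 in SK-BR-3 at 12 h, with 1.17. In the authors' series matrix the upward count was again 1, and ratios at 2-fold downward appeared on 3 arrays for DUSP7, which is dim, and on 1 array each for DUSP16 probes 3 and 4.

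**Figure D2:**
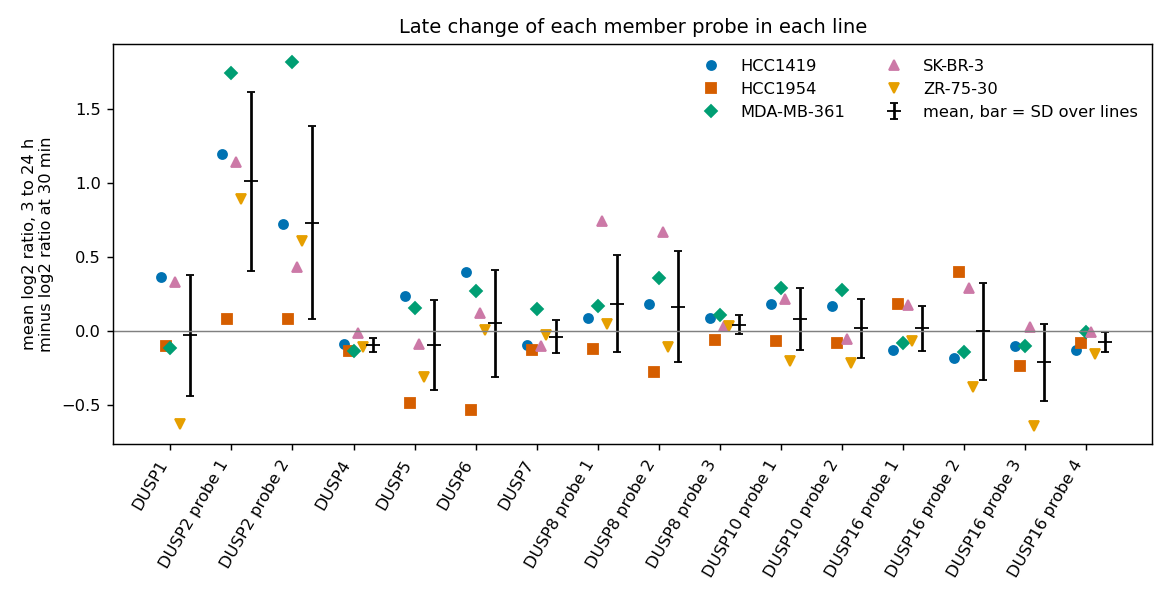
Late change of the log2 ratio (mean of 3 to 24 h minus 30 min, y axis) for each of the 16 member probes (x axis). Symbols are the 5 lines, the black dash is their mean and the bar the SD over lines. The DUSP2 probes reach 1.74 and 1.81 in MDA-MB-361, whereas means of the other 14 lie between −0.21 and 0.19.

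Array by array, DUSP2 probe 1 read above all 14 other probes on 18 of the 20 arrays taken after 30 min outside HCC1954, and probe 2 did so on 12 of those 20. In HCC1954 neither probe did so on any of 5 such arrays. The exceptions for probe 1 were HCC1419 at 24 h, where 1 other probe was higher, and SK-BR-3 at 12 h, where 2 were. Since DUSP2 was chosen from these ratios, the counts describe the arrays and carry no test.

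Among the nuclear inducible members, DUSP1, an immediate-early gene that acts on all MAP kinases, passed no test of change with time but stood above vehicle on most arrays. Its mean log2 ratio over the 5 lines was 0.36 ± 0.29 (SD) after 30 min, then 0.20 ± 0.41 after 1 h, 0.25 ± 0.13 after 3 h and 0.31 ± 0.33 after 24 h, with limma adjusted p between 0.24 and 0.60 over the 6 time points. It was above 0 in 5 of 5 lines at 30 min, 3, 12 and 24 h. The dyes were never swapped, so a constant offset of this kind and a dye bias of the probe cannot be told apart. The late change, in which a constant bias cancels, was −0.03 (SE 0.14), with 0.36 in HCC1419 and −0.63 in ZR-75-30 at the ends.

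DUSP4, which acts on ERK, JNK and p38, read slightly below vehicle. Its mean log2 ratio ran from −0.10 ± 0.11 (SD, n = 5) at 30 min to −0.22 ± 0.09 at 3 h, and it was below 0 in 5 of 5 lines at 1, 3 and 6 h. Without a block for the line, limma gave an adjusted p of 0.11 at 3 h, the lowest of the 84 tests of these probes against 0. With the line as a block, limma called DUSP4 lower after 3 h (adjusted p = 0.0199), 12 h (0.0371) and 24 h (0.0314). The block takes the differences between lines out of the error, so these p-values do not measure the spread between lines. That fit called 444, 779 and 1819 of all 41000 probes at these times, against 143, 190 and 647 without the block. Its mean level at 3 h was 0.858 times that of vehicle. Its late change was −0.10 (SE 0.05, adjusted p = 0.96) and turned to 0.17 when 1 factor per array replaced the loess curve. A dye bias was not tested.

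At the single time points, 0 of the 14 probes were called without the line block. Of all probes, 0.0805% were called after 30 min. The later shares were 0.973% (1 h), 0.349% (3 h), 0.176% (6 h), 0.463% (12 h) and 1.58% (24 h). Of the 84 tests, 14 had an unadjusted p under 0.05. The share of all probes at that unadjusted level was not counted. The tests repeat the same 14 probes and lines at 6 time points with unswapped dyes, so they are not independent.

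DUSP5, a nuclear phosphatase specific for ERK, went in different directions in different lines. In MDA-MB-361 its 6 ratios lay between 0.12 and 0.44. In HCC1954 they went from 0.17 at 30 min and 0.07 at 1 h to −0.32, −0.26, −0.22 and −0.47. DUSP6, the cytoplasmic ERK phosphatase, had the same course in HCC1954, with 0.16 and 0.00 followed by −0.33, −0.40, −0.20 and −0.54. Both thus stood below vehicle in HCC1954 on the 4 arrays from 3 h on. The 12 h array, the only one of these scanned on the same day as the 30 min and 1 h arrays, had the values closest to 0. In the other lines the DUSP6 late change ran from 0.01 in ZR-75-30 to 0.40 in HCC1419. The ZR-75-30 value averages unlike ratios, among them −0.62 at 6 h and 0.87 at 24 h. In SK-BR-3 DUSP6 was well above background on only 1 of 6 vehicle arrays. The test of whether late changes differ between lines called 0 of the 14 probes, against 0.0588% of all probes. An unadjusted p under 0.05 was found for 4 of 14, and the share of all probes at that level was not counted. DUSP5 was among the 4 (unadjusted p = 0.0087, adjusted p = 0.68) and DUSP6 was not (0.44 and 0.95).

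DUSP7, the other cytoplasmic ERK phosphatase, was clearly above background on only 9 vehicle channels of the 30, all of them in HCC1954 and SK-BR-3, and its 30 ratios lay between −0.29 and 0.10. The end coordinates of its probe A_24_P51855 in the design lie 1535 bases apart on hg18, at chr3:52063392-52064926, which is a genomic span and not a probe length. DUSP8 had 3 probes, of which probes 1 and 2 share 49 bases and are not independent. Their late changes were 0.19 (SE 0.10) and 0.17 (SE 0.10), with 0.74 and 0.67 in SK-BR-3. In SK-BR-3 both late changes rest on low 30 min ratios of −0.80 and −0.57, from 1 array. That array was scanned on another day than those from 3 h on. The 1 h array, scanned on the same day as the 30 min array, read 0.12 and 0.37. The third DUSP8 probe, upstream in the transcript, gave 0.04 (SE 0.06) and 0.04 in SK-BR-3. The probes of 1 gene thus did not read alike there.

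DUSP10, which prefers JNK and p38, had late changes of 0.08 (SE 0.10) and 0.02 (SE 0.08) on its 2 probes, whose ratios lay between −0.34 and 0.52. DUSP16, a JNK phosphatase with 4 probes, had late changes of 0.02, −0.00, −0.21 and −0.07. Its probe 2 departed from probe 1. In MDA-MB-361 probe 2 was below vehicle on all 6 arrays, from −0.33 to −0.85, whereas probe 1 lay between −0.30 and 0.25 there. In HCC1419 probe 2 was above vehicle on all 6 arrays (0.04 to 0.34) and probe 1 was below on all 6 (−0.47 to −0.23). Both probes are assigned to the same long transcript record in the design, chr12:12518811-12518870 for probe 1 and chr12:12518513-12518572 for probe 2, so a value for DUSP16 as a gene is uncertain.

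Whether the ratio over the whole course differed between lines was tested with the time point in the model. Limma called 5 of the 14 probes, against 22.2% of all probes. These were DUSP4 (adjusted p = 0.0469), DUSP5 (0.0233), DUSP8 probe 1 (0.00831) and DUSP16 probes 1 (0.016) and 2 (0.0102). MDA-MB-361 was the highest line for DUSP4 (−0.05), DUSP5 (0.24), DUSP8 probe 1 (0.41) and DUSP16 probe 1 (0.05), and the lowest for DUSP16 probe 2 (−0.48), as means over 6 arrays. Without MDA-MB-361, 0 of 14 were called, and the calls over all probes went from 9092 to 96. With 1 factor per array, 0 of 14 and 5 of all probes were called. Without HCC1419, 3 of 14 and 5384 of all probes were called. Scan day and line cannot be told apart in MDA-MB-361 and HCC1419.

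Levels in vehicle-treated cells are log2 of the normalized Cy3 signal and were compared between lines for 1 probe at a time. Limma called 16 of 16 probes, but 73% of all probes on the array were called in this test. DUSP4 was highest in HCC1419, at 14.56 ± 0.34 (SD, n = 6 arrays), then ZR-75-30 at 13.15 ± 0.36, and its lowest mean was 11.30 ± 0.56 in SK-BR-3 (adjusted p = 4.94e-12). The ranges of MDA-MB-361, HCC1954 and SK-BR-3 overlapped from neighbor to neighbor. DUSP16 was also highest in HCC1419 and lowest in HCC1954, on all 4 probes, with 12.50 ± 0.17 against 8.29 ± 0.14 on probe 1 (adjusted p = 1.2e-18). MDA-MB-361 and ZR-75-30 overlapped on all probes but probe 2, and on probe 4 only 3 SK-BR-3 and 4 HCC1954 arrays were well above background.

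HCC1954 had the highest levels of 4 members. DUSP6 was 13.07 ± 0.46 there, 10.35 ± 0.21 in HCC1419, 10.27 ± 0.44 in ZR-75-30 and 9.77 ± 0.44 in MDA-MB-361 (adjusted p = 2.48e-17). The last 3 overlapped from neighbor to neighbor. In SK-BR-3 the level of DUSP6 was 6.87 ± 0.19 and only 1 of 6 arrays was well above background. DUSP10 was likewise highest in HCC1954 (10.98 ± 0.44 on probe 1) and lowest in SK-BR-3 (6.96 ± 0.33, with 3 of 6 arrays well above background). DUSP5 was 11.34 ± 1.06 in HCC1954 and 8.72 ± 0.36 in ZR-75-30, the lowest. DUSP7 was well above background on 6 of 6 HCC1954 arrays, 3 of 6 SK-BR-3 arrays and 0 in the other lines, and no fold is given for it. DUSP8 alone was highest in SK-BR-3, at 10.33 ± 0.41 on probe 1 against 9.77 ± 0.30 in ZR-75-30, and these overlapped.

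**Figure D3:**
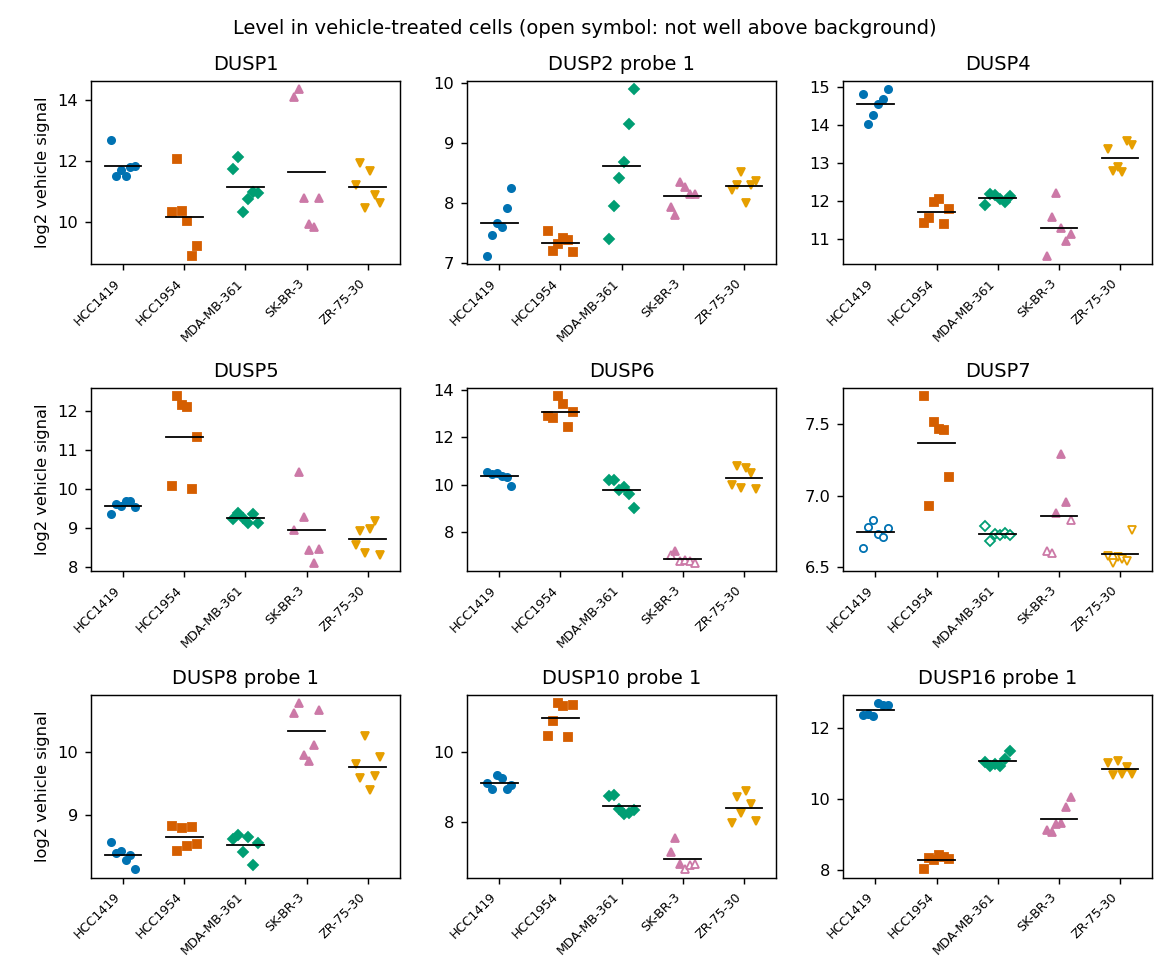
Normalized log2 signal of vehicle-treated cells (y axis, scale differs between panels) for 1 probe of each of the 9 genes in the 5 lines (x axis). Each symbol is 1 array, from 30 min on the left to 24 h on the right within a line, open where the spot was not well above background, and the black dash is the mean of 6. DUSP6 has its highest mean, 13.07, in HCC1954 and mostly open symbols in SK-BR-3, and levels of DUSP1 spread widely within SK-BR-3.

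The vehicle level of DUSP2 on probe 1 was 8.61 ± 0.90 in MDA-MB-361, 8.29 ± 0.17 in ZR-75-30, 8.11 ± 0.21 in SK-BR-3, 7.67 ± 0.38 in HCC1419 and 7.34 ± 0.13 in HCC1954 (adjusted p = 0.000161). Each line overlapped with its neighbor in this order. On probe 2 the same lines were at the ends, at 7.48 ± 0.41 and 6.88 ± 0.15 (adjusted p = 0.0196). These levels are means over all time points, and the order at 30 min was different. There probe 1 read 8.21 in ZR-75-30, 7.94 in SK-BR-3, 7.53 in HCC1954, 7.41 in MDA-MB-361 and 7.12 in HCC1419, each on 1 array. On probe 2 HCC1954 was lowest at 30 min too (6.945), and MDA-MB-361 (7.05) stood below SK-BR-3 (7.75) and ZR-75-30 (7.21). With scan day as a random block the adjusted p of probe 2 was 0.14 and that of DUSP1 0.22, against 0.0283 for DUSP1 without it. Without HCC1954 they were 0.32 and 0.47, and with slide as a random block 0.0853 and 0.0556. DUSP1 was also not called without HCC1419 (0.0607).

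The vehicle level of DUSP2 was not constant in time in MDA-MB-361. There probe 1 read 7.41, 7.95, 8.41, 8.68, 9.32 and 9.89 from 30 min to 24 h in vehicle and 7.68, 9.35, 9.98, 10.71, 11.44 and 12.26 with BMP4. Both rose at each step, and the ratio is the gap between them. In vehicle-treated HCC1419 probe 1 was also higher late, with 7.12, 7.47, 7.67, 7.60, 7.91 and 8.25 over the same times. In HCC1954 probe 1 stayed between 7.18 and 7.53 in vehicle and between 7.40 and 7.66 with BMP4. The increase from 30 min to 24 h in vehicle-treated MDA-MB-361 was 2.49 on probe 1 and 1.02 on probe 2, and 3.06 and 1.74 with the deposited Cy3 processed signal scaled to the 75th percentile of each array. Over all lines, a test of vehicle levels over time, added after the data were seen, gave adjusted p = 0.53 for probe 1 and 0.88 for probe 2.

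DUSP1 had the opposite course in vehicle. In SK-BR-3 it read 14.12 and 14.36 at 30 min and 1 h, then 10.80, 9.92, 9.84 and 10.77. In HCC1954 it read 10.31 and 12.06, then 10.37, 10.03, 8.88 and 9.22. The mean of 30 min and 1 h was above the mean of the later times in 5 of 5 lines, by 3.91 in SK-BR-3, 1.56 in HCC1954, 1.18 in MDA-MB-361, 0.65 in ZR-75-30 and 0.39 in HCC1419. The average of these was 1.54, and 0.95 without SK-BR-3, whose early arrays were scanned on another day. The BMP4 channel fell with the vehicle channel, so this course is nearly absent from the ratio. In the added test over time, DUSP1 had an unadjusted p of 0.0047 and an adjusted p of 0.25. Limma called 0 of the 16 probes there, 1 had an unadjusted p under 0.05, and 0.163% of all probes were called.

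**Figure D4:**
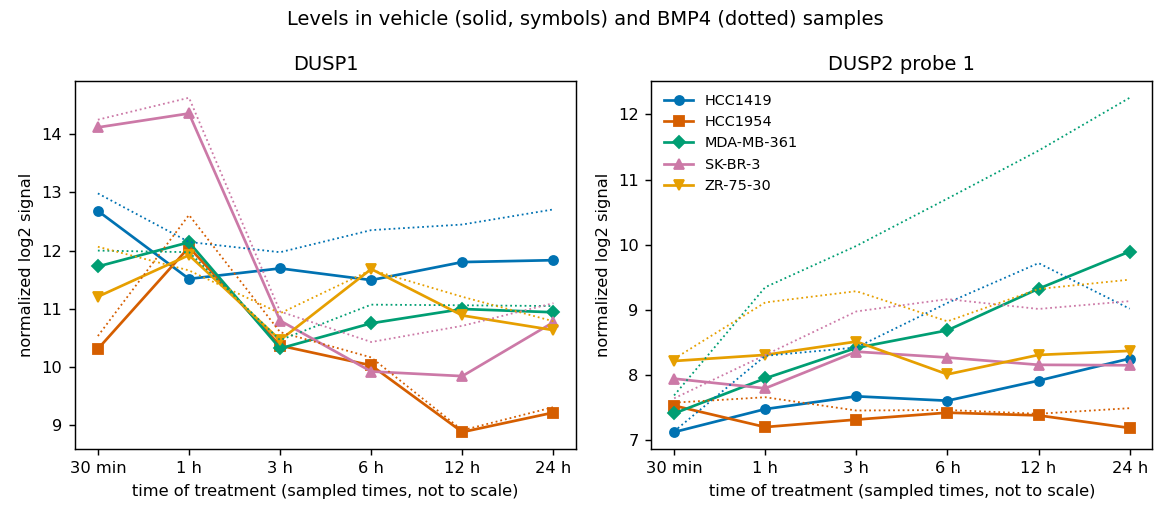
Normalized log2 signal (y axis) of DUSP1 and DUSP2 probe 1 against the sampled time points (x axis) in the 5 lines, with vehicle as solid lines with symbols and BMP4 as dotted lines, 1 array per point. DUSP1 fell from 14.36 at 1 h to 9.84 at 12 h in vehicle-treated SK-BR-3 with BMP4 close beside it, whereas DUSP2 in MDA-MB-361 climbed in both channels to 9.89 and 12.26.

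Other genes of the pathway were read from lists of their names. Of 20 probes for 14 other dual specificity phosphatases, 0 passed the late change or the F test, 0 had an unadjusted late p under 0.05, and their median late change was 0.03. Of 14 probes for 9 Sprouty, Spred and other feedback inhibitors of MAP kinase signaling 0 passed, 2 were higher and 1 lower at an unadjusted p under 0.05, and the median was −0.05. Of 26 probes for 15 genes transcribed in response to ERK, among them FOS, EGR1, ETV5 and JUNB, 0 passed, with a median of −0.08. At an unadjusted p under 0.05, 2 were higher and 1 lower. The 2 were the probes of JUNB, with late changes of 0.53 (limma adjusted p = 0.0754, up in 5 of 5 lines) and 0.34 (0.908, up in 4 of 5). The lower one was a probe of PHLDA1, with −0.20. Among 31 probes for 21 MAP kinases and their kinases the median was −0.01. At an unadjusted late p under 0.05, 2 of them were higher and 0 lower. Of the 31 probes, 1 passed the F test over time. It was MAP3K5, a kinase upstream of JNK and p38, which had a late change of 0.81 (SE 0.16, up in 5 of 5 lines). It was called by the F test over time (limma adjusted p = 0.0352) and missed the threshold for the late change (0.0527). The lists were chosen with earlier results of these data known, so the call of MAP3K5 is no independent test. The median over all 41000 probes was 0.01. The share of all probes with an unadjusted late p under 0.05 was not counted.

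For comparison, 5 of the 6 probes of the BMP targets ID1, ID2, ID3, SMAD6 and SMAD7 were called higher, with a list median of 0.99. The late change was 1.02 (SE 0.13) for ID1, 1.07 and 1.33 for the probes of ID2, 0.96 for ID3 and 0.75 for SMAD6, which inhibits BMP signaling. SMAD7 had 0.25 and was not called. Beside these, DUSP2 had 1.01 and 0.73 with an SD over lines of 0.61 and 0.65, and the ID1 late change was 0.60 to 1.33 in single lines. At 30 min the ID1 log2 ratio was already 0.295 to 0.561 in the 5 lines, whereas the DUSP2 means were 0.01 and −0.02. The late change subtracts the 30 min ratio, so it leaves that part of the ID1 response out.

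The genes whose ratios ran most like DUSP2 over the 30 arrays were ranked by Pearson correlation with the mean of its probes, among 21172 named probes well above background on at least 15 arrays. The highest were MTERFD2, a gene of the mitochondrial transcription termination factor family (r = 0.92), PAQR8, a membrane progestin receptor (0.85), TCF7L2, a transcription factor of the WNT pathway (0.85), TYRO3, a receptor tyrosine kinase (0.83), and BMF, a BCL2 family member that promotes apoptosis (0.83). With line means removed the values were 0.89, 0.75, 0.75, 0.75 and 0.80. The points share arrays, lines and scan days, and the order is a description.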

How the data were processed

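The series held 30 Agilent whole-genome arrays with 2 colours. The authors scanned them with Agilent Feature Extraction, version 9.5.1.1 per the file headers, with probe positions on hg18. Per the file headers the mean spot and median background signals are intensity values without normalization, and processed signals are deposited intensity values after background subtraction and dye normalization. The deposited log ratio is log10 of Cy5 over Cy3. The authors' series matrix holds log2 ratios with each array's median at 0.

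Signals were corrected by normexp (offset 50) and normalized within arrays by loess in limma 3.58.1 (R 4.3.3). Control spots and spots marked as outliers were left out, and spots were averaged per probe. Vehicle levels were scaled between arrays with Aquantile. Tests used lmFit and eBayes, adjusted by Benjamini-Hochberg across the whole array and called under 0.05, and were tested on simulated data. The number of arrays limits the precision, as do low signal and the offset for dim probes.

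The groups were the 6 time points. Replicate numbers are cell lines (5 for ZR-75-30, 4 for SK-BR-3, 3 for MDA-MB-361, 2 for HCC1954 and 1 for HCC1419), which pair arrays because each is 1 cell line. Array deviations from their time point's mean had an average r of 0.23 within lines and −0.09 between lines. Line was a block in tests over time. Every member probe is named, with up to 4 called genes of each other list and the 5 genes most like DUSP2. Members, lists and tests were chosen with earlier results of these data known. Alternatives were the deposited log ratio, the series matrix, median normalization, outlier spots, a filter on dim probes, array weights, scan day, slide, the block and each line left out. The software's own p-values per spot were not used.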

Additional observations from a re-analysis of the deposited data

Results flagged for a closer look

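Each of 176 groups (16 probes at 6 time points over lines, and in 5 lines over time) was searched for an array far from the rest, and 11 were found. Chance gives about 1 in 20. Among log2 ratios, DUSP1 in ZR-75-30 at 30 min was 0.86, against 0.13 to 0.30 in the other lines. DUSP2 probe 2 in MDA-MB-361 at 24 h was 2.45, against 0.17 to 0.79. DUSP2 was chosen from its ratios, so its flag is a description, and the rate of 1 in 20 does not apply to it. DUSP8 probe 3 was 0.12 in HCC1954 at 30 min (others −0.09 to −0.03) and −0.38 in SK-BR-3 at 12 h (others 0.01 to 0.16). DUSP16 probe 3 was −0.17 in HCC1419 at 30 min (others 0.02 to 0.08). At 12 h in ZR-75-30, DUSP16 probe 3 was −0.94 (others −0.05 to 0.01) and DUSP16 probe 4 was −0.67 (others −0.12 to 0.04), on 1 array.

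Among vehicle log2 levels, HCC1419 held 3 of the 4. DUSP1 was 12.68 at 30 min (other times 11.49 to 11.84), DUSP2 probe 2 was 7.78 at 24 h (7.03 to 7.25) and DUSP6 was 9.95 at 24 h (10.32 to 10.54). DUSP7 in ZR-75-30 was 6.76 at 24 h (6.53 to 6.58), all not well above background.

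The mean BMP4 over vehicle ratio differed between lines, by the limma F test, for DUSP4 (adjusted p = 0.0469, line means −0.26 to −0.05), DUSP5 (0.0233, −0.17 to 0.24), DUSP8 probe 1 (0.00831, −0.15 to 0.41), DUSP16 probe 1 (0.016, −0.34 to 0.05) and DUSP16 probe 2 (0.0102, −0.48 to 0.46). The same test called 22.2% of all probes. The cause of these differences was not tested.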

How the results depend on the processing

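Under all alternatives run, 0 of the 14 probes outside DUSP2 were called in the late change, the change over time or the late change between lines, and their late changes ran from −0.32 to 0.28. Against 0, 1 of 14 probes was called at 30 min, 3 h and 6 h (DUSP4) and at 24 h (DUSP1) with array weights, which called 1378, 1144, 255 and 1246 of all probes at these times against 33, 143, 72 and 647, and 1 (DUSP4) at 3, 12 and 24 h with the line as a replicate block. With 1 line left out, counts ran from 0 to 1 at 12 h and at 24 h, with DUSP4 called without MDA-MB-361. The replicate block changed no other call against 0, and leaving it out of the tests over time changed none. The 5 probes whose ratio differed between lines became 0 with 1 factor per array, 3 with the series matrix, 8 under array weights, and 0 to 5 with 1 line left out. Over all probes, that test called 9092 in the main fit and 5 with 1 factor per array. It called 6256 with the series matrix, 14873 under array weights, and 96 to 10129 with 1 line left out. Arrays with DUSP2 at 2-fold went from 9 to 18 (probe 1) and from 6 to 17 (probe 2) with the deposited log ratio, and to 18 and 16 with the series matrix. The cause was not tested. With 1 line left out, the DUSP2 late change ran from 0.83 to 1.24 on probe 1 and from 0.46 to 0.89 on probe 2. Vehicle levels differed between lines for 14 to 16 of the 16 probes tested under every alternative that tested all of them. Slide as a block and the test of vehicle levels over time were added after seeing the data. Low signal limits DUSP7, DUSP6 and DUSP10 in SK-BR-3, DUSP16 probe 4 in SK-BR-3 and HCC1954, and DUSP2 probe 2 in HCC1954.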
